A study of Arabidopsis thaliana with 4 samples.

Results

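The genes described here encode the light reactions of photosynthesis: the light-harvesting chlorophyll-binding proteins of both photosystems, the nuclear-encoded subunits of photosystem I and photosystem II, the carriers between and after them, and 2 subunits of the plastid ATP synthase. They were taken as a list of 50 gene identifiers out of the 36632 gene rows of the count tables of Arabidopsis thaliana. Of the 50, 48 are rows of coding genes of the apparatus. The other 2, AT2G08665 and AT1G55673, are rows of genes annotated on the strand opposite *LHCB1.5* (AT2G34420) and *PSAG* (AT1G55670). The question is whether counts in these rows differed between *jmj26* and Col-0.

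RNA-seq was done on whole rosettes at the nine-leaf stage, grown on soil in long days of 16 h of light at 21ºC after 2 days of cold. Col-0, the wild type, and *jmj26*, a t-DNA insertion line with the insertion in the jmjC gene *JMJ26*, gave 2 libraries each, and neither carries any other allele or treatment in the labels. *jmj26* is 1 insertion, and the labels do not say whether its 2 libraries come from separately kept lines. Rosettes were harvested individually according to the methods of the study, and p-values measure the spread between these libraries alone. A rosette holds several tissues, and fewer cells of a type cannot be told apart from less RNA per cell.

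Chlorophyll-binding antenna proteins absorb light and pass the energy to the reaction centre of a photosystem. *LHCB* proteins serve mainly photosystem II, and *LHCA* proteins form the antenna of photosystem I. Photosystem II takes electrons from water, plastocyanin hands them to photosystem I after the cytochrome b6f complex, and ferredoxin and ferredoxin-NADP reductase pass them on to NADP. In leaves the nuclear genes of this apparatus are among the most transcribed genes, and many are induced by light.

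The Col-0 libraries held 1022041 and 740909 counts, transposon rows included, those of *jmj26* 1998601 and 1497105, and gene rows held between 580064 and 1655014 of them. *JMJ26* (AT1G11950) had 1, 0, 0 and 2 counts, at or below the floor of 3 counts in every library, so the genotype could not be checked on it. All 5 leaf markers were tested, and the summed level of these Rubisco small subunit, Rubisco activase and carbonic anhydrase genes was 271 and 594 CPM (counts relative to the TMM-scaled library size, TMM being the trimmed mean of M values) in Col-0 against 1069 and 997 CPM in *jmj26*. No flower, seed or root marker had enough counts to be tested, and their highest counts in a library were 2, 5 and 3. The flower genes *AP3*, *PI* and *AG*, the seed genes *CRU3* and *SESA3* and the root gene *MYB36* were at 0 in all 4 libraries. The leaf gene *RBCS1A* itself had only 88 and 132 counts in Col-0 against 573 and 366 in *jmj26*. Low counts of the other markers therefore do not show that a tissue was absent. None of the 20 plastid-encoded subunits listed was analysed here.

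The position of these genes on the 2 strands bears on what can be read from their rows, so the start of *LHCB1.5* and of *PSAG* is shown as each strand reads it, from the TAIR10.1 genome of RefSeq. The capitals mark the start codon, and its reverse complement in the gene on the opposite strand. The first pair lies at chr2:14523454-14523513 and the second at chr1:20803297-20803356, in each case the first 60 coding bases of the minus-strand gene.
LHCB1.5: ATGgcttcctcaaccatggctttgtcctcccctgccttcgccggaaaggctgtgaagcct
AT2G08665: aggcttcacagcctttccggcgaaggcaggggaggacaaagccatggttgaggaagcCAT
PSAG: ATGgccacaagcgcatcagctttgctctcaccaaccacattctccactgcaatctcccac
AT1G55673: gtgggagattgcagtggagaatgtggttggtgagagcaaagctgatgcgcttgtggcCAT
Every base of these stretches lies in an exon of both genes, so a read from here can be placed only by its strand.

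*LHCB1* encodes the most abundant antenna protein of photosystem II and exists in 5 closely similar copies. The last 90 coding bases of each copy are shown because reads from identical stretches cannot be assigned to 1 copy. The copies differ at 15 of these positions, which are in capitals. *LHCB1.2* ends at chr1:10472443-10472532 on the minus strand, *LHCB1.1* at chr1:10475089-10475178 on the minus strand, *LHCB1.3* at chr1:10478785-10478874 on the plus strand, *LHCB1.5* at chr2:14522716-14522805 on the minus strand and *LHCB1.4* at chr2:14525529-14525618 on the plus strand.
LHCB1.2: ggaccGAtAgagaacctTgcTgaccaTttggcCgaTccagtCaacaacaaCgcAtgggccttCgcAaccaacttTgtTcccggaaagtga
LHCB1.1: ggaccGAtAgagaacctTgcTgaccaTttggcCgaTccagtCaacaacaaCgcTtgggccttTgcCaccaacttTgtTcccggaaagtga
LHCB1.3: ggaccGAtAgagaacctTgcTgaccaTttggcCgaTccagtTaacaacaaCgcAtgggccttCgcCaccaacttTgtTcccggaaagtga
LHCB1.5: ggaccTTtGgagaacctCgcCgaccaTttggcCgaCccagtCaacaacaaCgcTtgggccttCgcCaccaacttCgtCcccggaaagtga
LHCB1.4: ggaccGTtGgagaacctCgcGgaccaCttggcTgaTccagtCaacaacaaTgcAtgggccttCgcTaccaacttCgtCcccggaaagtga
Across the whole coding sequence, aligned pairs of *LHCB1* copies were identical at 87.4% to 96.4% of bases. *LHCB2.1* and *LHCB2.2* were identical at 96.6%. Of the 48 coding genes, 40 had no exon window of 50 bases that occurs a second time in the genome on either strand. The 8 that did were the 5 *LHCB1* copies (10.6% to 20.5% of windows), *LHCB2.1* (23.5%), *LHCB2.2* (29.5%) and *LHCA2* (11.4%). How reads with several hits were shared among gene rows is not given in the sources used here, and the counts of these 8 genes are uncertain as values of 1 copy.

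AT2G08665, a noncoding RNA gene at 14522522 to 14523568 on the plus strand of chromosome 2, held the most counts of all gene rows. It covers every exon base of *LHCB1.5* (1045 of 1045 bases). Its counts were 157599 and 109579 in Col-0 against 319846 and 224036 in *jmj26*. As a share of gene counts this was 18.7% and 18.9% in Col-0 against 19.3% and 18.2% in *jmj26*. The genotypes overlapped, with both Col-0 libraries between the 2 *jmj26* libraries. The log2 fold change of *jmj26* over Col-0 was -0.00184 ± 0.08 (SE, n = 2 per genotype) with an adjusted p = 0.999 in the quasi-likelihood test of edgeR, in which the adjustment covers the 5232 gene rows tested. The exact permutation test of the shares gave p = 1.0, and 2 against 2 libraries cannot go below 0.333.

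On the other strand, *LHCB1.5* had 23 and 29 counts in Col-0 against 141 and 112 in *jmj26*. Of the counts of both rows together, its own row held 0.0146% (95% Wilson interval 0.00972 to 0.0219) and 0.0265% (0.0184 to 0.0380) in Col-0 against 0.0441% (0.0374 to 0.0520) and 0.050% (0.0415 to 0.0601) in *jmj26*. Both *jmj26* values were above both Col-0 values, with a permutation p = 0.333, the smallest that this exact test can give here. Intervals cover counting error only.

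AT1G55673 is annotated as protein-coding at 20802971 to 20803449 on the plus strand of chromosome 1, inside *PSAG*, the gene of a photosystem I subunit that anchors antenna proteins. It shares all its 479 exon bases with *PSAG*, which is 61.4% of the exon bases of *PSAG*. It had 30977 and 18180 counts in Col-0 against 50592 and 45139 in *jmj26*, and was the fourth row by total counts. Its share of gene counts was 3.67% and 3.13% in Col-0 against 3.06% and 3.67% in *jmj26*, so the genotypes overlapped (exact permutation p = 0.667). Its log2 fold change was -0.0183 ± 0.13 (adjusted p = 0.979, edgeR).

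*PSAG* itself had 20 and 26 counts in Col-0 against 53 and 45 in *jmj26*. Its level was 24.7 and 45.9 CPM in Col-0 against 33.0 and 37.9 CPM in *jmj26*, and its log2 fold change was 0.0437 ± 0.33 (adjusted p = 0.981, edgeR). The *PSAG* row held 0.0645% and 0.143% of the counts of the pair in Col-0 against 0.105% and 0.0996% in *jmj26* (exact permutation p = 1.0). On both strands of this locus the libraries of the genotypes overlapped.

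An annotated gene on the opposite strand overlapped 16 of the 48 coding genes, 19 such genes in all. The extent differed, from 9 exon bases of *PSAE-1* shared with AT4G28740 to all 1045 of *LHCB1.5*. *ATM2*, for example, shared 15.0% of the exon bases of *LHCB3*, and *ROPGEF11* 24.8% of those of *PSAH2*. Counts of such a row need not come from the overlap. These 19 rows held 32.3% and 32.4% of all gene counts in Col-0 against 32.2% and 31.6% in *jmj26*, and 9 of them were among the 20 rows with the most counts. Besides the rows opposite *LHCB1.5* and *PSAG*, the 20 included AT1G05207 and AT1G15810 opposite *LHCB6*, AT4G28755 opposite *PSAE-1*, *ATM2* opposite *LHCB3*, *ROPGEF11* opposite *PSAH2*, *ROPGEF13* opposite *PSAH-1*, and AT3G27700 opposite *LHCB2.3*. At 14 of the 16 genes, the own row had fewer counts than an opposite row in every library. The exceptions were *LHCB4.2* and *PSBR*, a subunit near the oxygen-evolving complex. Coding rows with a single annotated gene on the opposite strand were also read over all annotated genes. Of these, 64 had at least 90% of their exon bases covered by an opposite row with 1000 counts or more. The median share on the coding row was 1.09% and 1.37% in Col-0 against 1.51% and 1.37% in *jmj26*. These pairs were picked for high counts on the opposite row, which favours a low share. Only *LHCB1.5* of the 16 genes has such coverage, and it is not among the 64, as AT2G34410 and AT2G08665 both lie opposite it. The 64 are therefore no background for the 14 of 16. The library kit keeps the strand, but the strand setting of the counting is not given in the sources used here, and its part in these values was not tested.

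**Figure D1:**
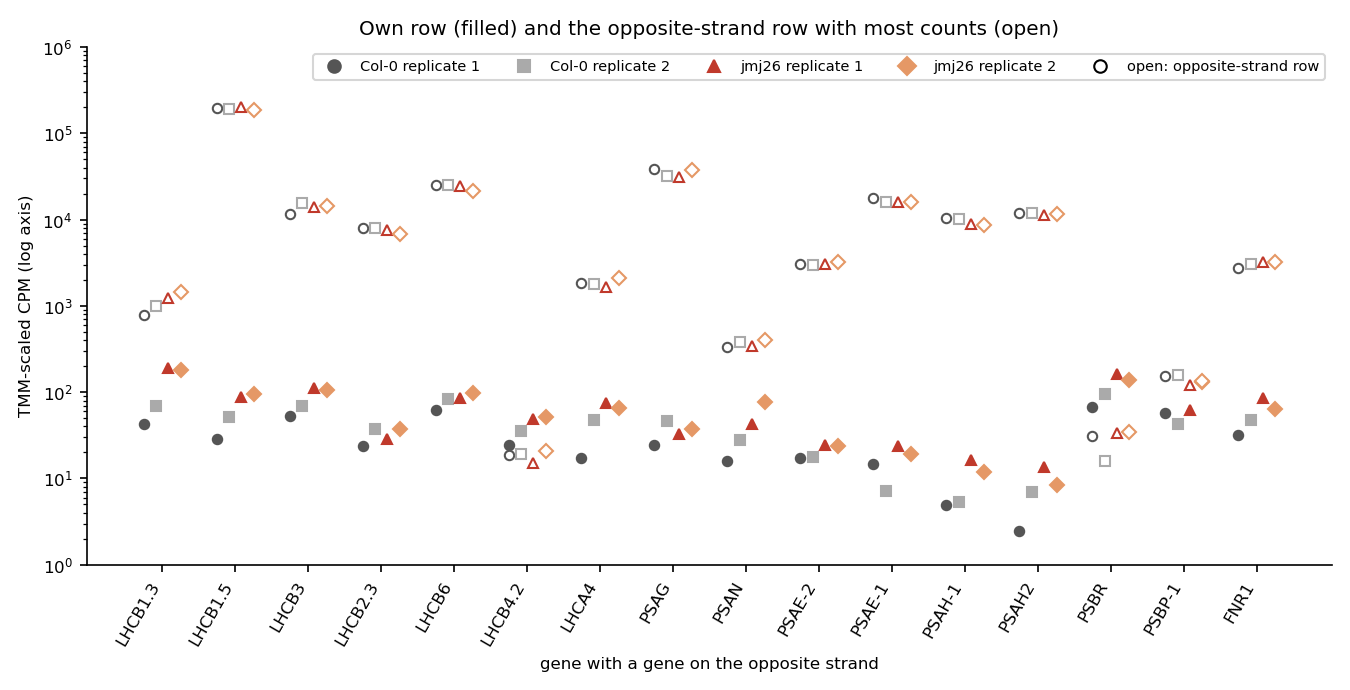
TMM-scaled CPM (log axis) of the 16 genes with a gene on the opposite strand: filled symbols are the gene's own row and open symbols the opposite-strand row with the most counts, with 1 symbol per library. Open symbols lie above filled ones at 14 of 16 genes, by over 1000-fold at *LHCB1.5*, and the exceptions are *LHCB4.2* and *PSBR*. The opposite gene drawn shares from 2.95% (*PSBP-1*) to 100% (*LHCB1.5*) of the exon bases.

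No opposite-strand row was called. Of the 19, 18 were tested, none passed an adjusted p of 0.05 in edgeR or DESeq2, 1 had an unadjusted p below 0.05 in edgeR and 2 in DESeq2, and their median log2 fold change was 0.018 (range -0.29 to 0.60). The gene with an unadjusted p below 0.05 was *NRPA2*, opposite *LHCB1.3*, which encodes a subunit of RNA polymerase I. It had 793 and 997 CPM in Col-0 against 1245 and 1458 CPM in *jmj26*, with a log2 fold change of 0.60 ± 0.16 (adjusted p = 0.126). *ROPGEF13*, opposite *PSAH-1*, had 10339 and 10290 CPM in Col-0 against 8919 and 8761 CPM in *jmj26*. Its log2 fold change was -0.22 ± 0.10 (adjusted p = 0.376). AT1G05207, the noncoding RNA opposite *LHCB6*, had 25073 and 25095 CPM in Col-0 against 24472 and 21672 CPM in *jmj26*. Its log2 fold change was -0.12 ± 0.11 (adjusted p = 0.713).

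**Figure D2:**
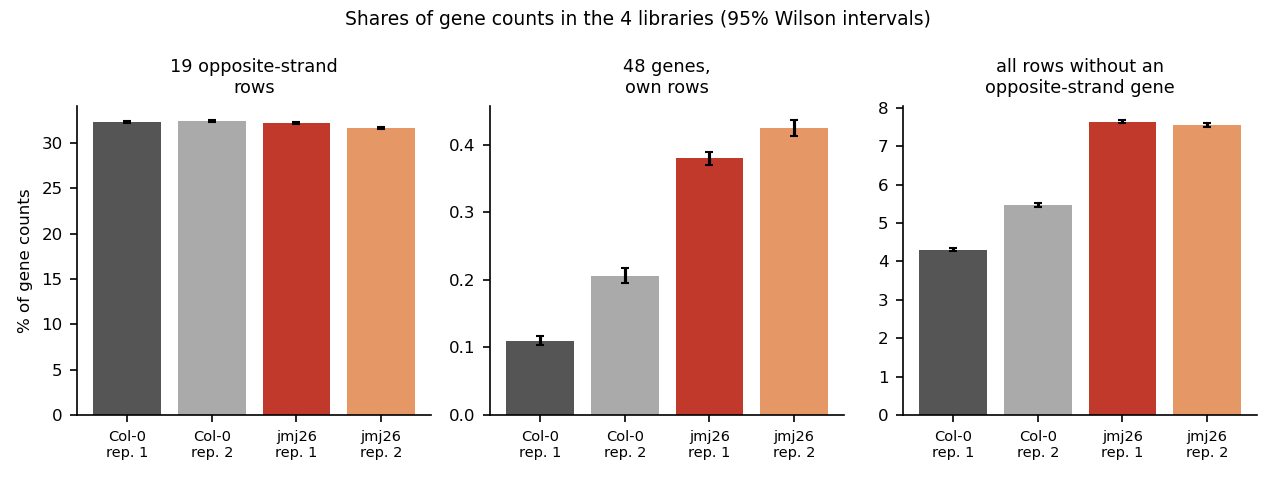
Percent of gene counts in each of the 4 libraries, with 95% Wilson intervals, for the 19 opposite-strand rows (left), the own rows of the 48 coding genes (middle) and all rows without a gene on the opposite strand (right). The left bars stay between 31.6% and 32.4%, while the middle bars run from 0.110% to 0.425% and the right bars from 4.31% to 7.64%, with Col-0 replicate 1 lowest in both.

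The own rows of the 48 coding genes held few counts and more of them in *jmj26*. Together they took 0.110% (95% Wilson interval 0.103 to 0.117) and 0.206% (0.195 to 0.218) of gene counts in Col-0 against 0.380% (0.371 to 0.389) and 0.425% (0.413 to 0.436) in *jmj26*. Their summed level was 1144 and 2109 CPM in Col-0 against 3911 and 4393 CPM in *jmj26*. The median count of a gene was 14 and 16 in Col-0 against 67.5 and 63 in *jmj26*. In Col-0 replicate 1, 14 genes had fewer than 10 counts, and in replicate 2 also 14, not all of them the same genes. The Col-0 libraries also stood apart from each other: 38 of 48 genes were lowest in Col-0 replicate 1, 38 were higher in replicate 2 than in replicate 1, and the median ratio of replicate 2 to 1 was 1.71 in Col-0 against 0.984 in *jmj26*. Over all tested gene rows that ratio was 0.9996 in Col-0 and 0.957 in *jmj26*. Over tested rows without an opposite-strand gene it was 1.285 and 0.886.

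No coding gene passed the adjusted threshold of 0.05 in edgeR, where 0.0573% of all gene rows did (3 of 5232). Of the 48, 46 were tested, as *PSAH2* and *PSBQA* were removed by the filter on low counts. The smallest adjusted p was 0.0977. At an unadjusted p below 0.05, 30 of 46 were higher in *jmj26* (65.2%) and 0 lower, where 13.6% of all tested rows were higher. The median log2 fold change was 1.18 (range -0.04 to 2.11), where the median of all tested rows was 0.013. Both *jmj26* libraries lay above both Col-0 libraries for 39 of the 46 (84.8%), where this held for 26.8% of all tested rows. The filter on low counts needed only 2 libraries, so a gene could enter these tallies on its *jmj26* counts. *PSAH-1* was tested with 4 and 3 counts in Col-0 against 26 and 14 in *jmj26*. Where each library had to hold 10 counts, 30 identifiers were tested, the 2 opposite-strand rows of the list included. Of these 30, 24 were higher at an unadjusted p below 0.05 in edgeR. The percent of all rows at that p under this filter is not given here. The Wald test of DESeq2 called 1 of the genes, *LHCB1.3*, where it called 8 of 5232 rows in all (0.153%). It had 20 of 46 at an unadjusted p below 0.05, all higher in *jmj26*, where 5.37% of all tested rows were higher.

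Rows without a gene on the opposite strand had mostly positive log2 fold changes across the genome in the main edgeR fit, and this bears on the reading of those numbers. Among all such rows, 38.3% had an unadjusted p below 0.05 and were higher, 51.7% had non-overlapping libraries in that direction, and the median log2 fold change was 0.61. The 32 coding genes of this class had 21 of 31 tested at that p (67.7%), 26 of 31 without overlap (83.9%), and a median of 1.39. The share of gene counts in all rows of this class was 4.31% and 5.47% in Col-0 against 7.64% and 7.55% in *jmj26*, and the part of this difference in the result was not tested. Of those counts, the 32 genes held 1.46% and 2.54% in Col-0 against 3.58% and 4.17% in *jmj26*. The 16 genes with an opposite-strand gene had 9 of 15 tested at an unadjusted p below 0.05 (60%), where 5.04% of all rows with such a gene were, and a median of 0.91 where that of all such rows was -0.031. When the fit held only rows without an opposite-strand gene, none of 31 was called, where 1 of 1263 rows was called in all. The median was 0.922 where that of all rows was -0.115. In this fit 12 of the 31 had an unadjusted p below 0.05. The percent of all its rows at that p is not given here, so the 12 have no background. Where each library had to hold 10 counts, the median of rows without an opposite-strand gene was -0.0029, against 0.61 in the main fit. That of the 30 identifiers then tested was 1.014. The part of the low-count filter in these values was not tested.

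Leaving out a Col-0 library changed the count of calls. Without Col-0 replicate 2, 22 of the 50 identifiers were called higher and their median log2 fold change was 1.49, where 445 of 6692 gene rows were called in all (6.65%) and the median of rows without an opposite-strand gene was 1.17. Without Col-0 replicate 1, only *PSBO1* was called, where 30 of 6691 gene rows were called in all (0.448%). The median was then 0.71, where that of rows without an opposite-strand gene was 0.57. Without *jmj26* replicate 1 or 2, the medians were 1.20 and 1.08, where those of rows without an opposite-strand gene were 0.558 and 0.605. The lone Col-0 or *jmj26* library was then assumed to vary like the other genotype.

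**Figure D3:**
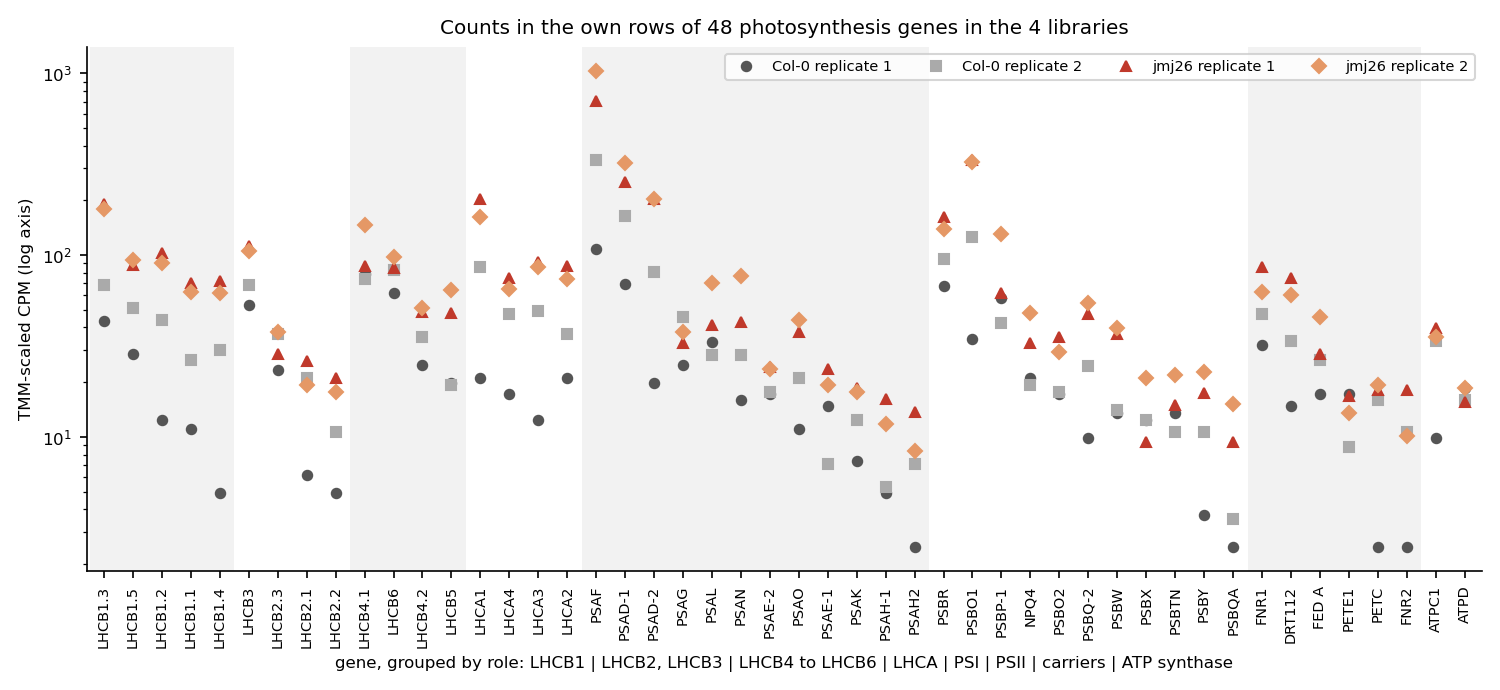
TMM-scaled CPM (log axis) in the own row of each of the 48 coding genes, by role from *LHCB1* on the left to ATP synthase on the right, with 1 symbol per library and shading for alternate roles. Both *jmj26* symbols lie above both Col-0 symbols for 41 of 48 genes, and Col-0 replicate 1 is lowest for 38.

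The *LHCB1* copies were higher in *jmj26* in all 5 rows, each with an unadjusted p below 0.05, with a median log2 fold change of 1.87. Their summed level was 100 and 220 CPM in Col-0 against 525 and 488 CPM in *jmj26*. *LHCB1.3* (AT1G29930, chromosome 1, 10477885 to 10479114) had 43.2 and 68.8 CPM in Col-0 against 191 and 178 CPM in *jmj26*. Its log2 fold change was 1.75 ± 0.23, a 3.36-fold difference, and its adjusted p = 0.0977 (edgeR) was the smallest among the genes. Its libraries did not overlap, and DESeq2 gave it an adjusted p = 0.00155, in a range of 7.15e-09 to 0.272 over 15 alternatives. *LHCB1.1* (AT1G29920) had 11.1 and 26.5 CPM in Col-0 against 70.3 and 63.1 CPM in *jmj26* (log2 fold change 1.90 ± 0.36, adjusted p = 0.109, edgeR). *LHCB1.5* had 28.4 and 51.2 CPM in Col-0 against 87.8 and 94.2 CPM in *jmj26*, the smallest difference among the copies at 1.23 ± 0.28 (adjusted p = 0.109, edgeR). The other two copies, *LHCB1.2* and *LHCB1.4*, had log2 fold changes of 1.87 and 2.08. Because the copies share sequence, they are not 5 separate measurements.

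*LHCB2* and *LHCB3*, which form trimers with *LHCB1*, had a lower median log2 fold change of 0.86, and the difference between these groups was not tested. The log2 fold change ranged from 0.16 to 1.40, and 2 of 4 rows had an unadjusted p below 0.05. *LHCB3* (AT5G54270, chromosome 5, 22038165 to 22039568) had 53.1 and 68.8 CPM in Col-0 against 113 and 105 CPM in *jmj26*. The libraries of the genotypes did not overlap, and the log2 fold change was 0.85 ± 0.21 (adjusted p = 0.111, edgeR). *LHCB2.3* (AT3G27690) had 23.5 and 37.0 CPM in Col-0 against 28.6 and 37.9 CPM in *jmj26*, which overlapped, with 0.16 ± 0.32 (adjusted p = 0.909).

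The minor antenna genes *LHCB4* to *LHCB6* encode monomeric proteins between the trimers and the core of photosystem II. All 4 were higher in both *jmj26* libraries, 2 with an unadjusted p below 0.05, and their log2 fold changes ranged from 0.35 to 1.50. *LHCB5* (AT4G10340, chromosome 4, 6408007 to 6409849) had 19.8 and 19.4 CPM in Col-0 against 47.9 and 63.9 CPM in *jmj26*. Here the Col-0 libraries had nearly the same level, and the log2 fold change was 1.50 ± 0.29 (adjusted p = 0.109, edgeR). *LHCB4.1* (AT5G01530) had 79.1 and 74.1 CPM in Col-0 against 87.1 and 146 CPM in *jmj26*, with the higher value in 1 *jmj26* library (0.59 ± 0.28, adjusted p = 0.379). *LHCB6* (AT1G15820) had 61.8 and 82.9 CPM in Col-0 against 84.7 and 97.6 CPM in *jmj26*, a narrow gap between the genotypes (0.35 ± 0.22, adjusted p = 0.556). *LHCB4.2* (AT3G08940) had 24.7 and 35.3 CPM in Col-0 against 48.6 and 51.3 CPM in *jmj26* (0.76 ± 0.27, adjusted p = 0.207, edgeR). It overlaps its opposite-strand neighbour AT3G08943 by only 44 exon bases, and that neighbour had 14.9 to 21.0 CPM in the 4 libraries.

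The 4 *LHCA* genes, for the antenna of photosystem I, were all higher in both *jmj26* libraries with an unadjusted p below 0.05, and had a median log2 fold change of 1.57. Their summed level was 71.7 and 220 CPM in Col-0 against 458 and 387 CPM in *jmj26*, so the Col-0 libraries also lay far from each other. *LHCA1* (AT3G54890, chromosome 3, 20339504 to 20341176) had 21.0 and 86.4 CPM in Col-0 against 204 and 162 CPM in *jmj26* (1.86 ± 0.48, adjusted p = 0.121, edgeR). *LHCA2* (AT3G61470) had 21.0 and 37.0 CPM in Col-0 against 87.1 and 74.0 CPM in *jmj26* (1.52 ± 0.29, adjusted p = 0.109). *LHCA4* (AT3G47470) had 17.3 and 47.6 CPM in Col-0 against 75.3 and 64.8 CPM in *jmj26* (1.19 ± 0.39, adjusted p = 0.183), whereas *ATSMC2* on its opposite strand had 0.0452 ± 0.15. Without Col-0 replicate 2 the log2 fold change of *LHCA1* was 3.03 and that of *LHCA4* 1.92, against 0.96 and 0.43 without Col-0 replicate 1.

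Photosystem I subunits contained the own row with the most counts and also rows at the floor. Of the 11 tested, 8 had an unadjusted p below 0.05, and the median log2 fold change was 1.33. *PSAF* (AT1G31330, chromosome 1, 11214676 to 11216141), the subunit that docks plastocyanin, had 88 and 189 counts in Col-0 against 1128 and 1228 in *jmj26*. This was 109 and 333 CPM in Col-0 against 702 and 1033 CPM in *jmj26*, with a log2 fold change of 2.00 ± 0.45 (adjusted p = 0.109, edgeR). The genotypes did not overlap, and the value was 2.91 without Col-0 replicate 2 and 1.26 without Col-0 replicate 1. Per kilobase of exon, *PSAF* was at 184 CPM in Col-0 against 721 CPM in *jmj26*, where the medians of the 48 genes were 19.4 and 42.8. *PSAD-2* (AT1G03130), 1 of a pair of genes for the subunit that binds ferredoxin, had 19.8 and 81.2 CPM in Col-0 against 205 and 204 CPM in *jmj26* (2.10 ± 0.47, adjusted p = 0.109). *PSAD-1* (AT4G02770), its partner with 88.0% identical coding bases, had 69.2 and 164 CPM in Col-0 against 254 and 321 CPM in *jmj26* (1.33 ± 0.35, adjusted p = 0.120). In both *PSAD* genes the Col-0 libraries differed from each other by over 2-fold. Without Col-0 replicate 2 the log2 fold change of *PSAD-2* was 3.27 and that of *PSAD-1* 1.96, against 1.21 and 0.68 without Col-0 replicate 1.

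The other photosystem I genes with an opposite-strand row had lower levels. *PSAN* (AT5G64040), a lumenal subunit, had 16.1 and 28.2 CPM in Col-0 against 43.0 and 76.6 CPM in *jmj26* (1.46 ± 0.40, adjusted p = 0.133, edgeR). *PSAH-1* (AT3G16140), for a subunit at the docking site of mobile antenna, had 4, 3, 26 and 14 counts in Col-0 replicates 1 and 2 and *jmj26* replicates 1 and 2 (1.46 ± 0.47, adjusted p = 0.175). *PSAH2* (AT1G52230) had 2, 4, 22 and 10 counts and was not tested. Both *PSAH* genes were higher in both *jmj26* libraries, with Col-0 counts of 2 to 4, around the floor of 3. *PSAE-1* (AT4G28750), for a stromal subunit, had 14.8 and 7.06 CPM in Col-0 against 23.7 and 19.4 CPM in *jmj26* (0.91 ± 0.40, adjusted p = 0.340). *PSAE-2* (AT2G20260) had 17.3 and 17.6 CPM in Col-0 against 24.3 and 23.6 CPM in *jmj26* (0.45 ± 0.29, adjusted p = 0.582). The remaining genes, *PSAK*, *PSAL* and *PSAO*, had log2 fold changes of 0.93, 0.83 and 1.39.

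For photosystem II, 7 of 10 tested genes had an unadjusted p below 0.05, with a median log2 fold change of 0.94. *PSBO1* (AT5G66570, chromosome 5, 26568572 to 26570461), the main gene of the manganese-stabilizing protein of the oxygen-evolving complex, had the largest log2 fold change of the 46. Its level was 34.6 and 125 CPM in Col-0 against 334 and 324 CPM in *jmj26* (2.11 ± 0.45, a 4.31-fold difference, adjusted p = 0.109, edgeR). It was the 1 gene called without Col-0 replicate 1, with 1.27 and an adjusted p = 0.0457 (range over 16 alternatives 1.25e-16 to 0.632), and it had 3.15 without Col-0 replicate 2. *PSBO2* (AT3G50820), whose coding sequence is 83.8% identical, had 17.3 and 17.6 CPM in Col-0 against 35.5 and 29.4 CPM in *jmj26* (0.90 ± 0.29, adjusted p = 0.175). The Col-0 libraries were far apart for *PSBO1* and at nearly the same level for *PSBO2*.

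*PSBW* (AT2G30570), a small subunit, had 13.6 and 14.1 CPM in Col-0 against 36.7 and 39.5 CPM in *jmj26*, with little spread in either genotype (1.45 ± 0.29, adjusted p = 0.109, edgeR). *PSBR* (AT1G79040) had 68.0 and 95.3 CPM in Col-0 against 162 and 140 CPM in *jmj26* (0.91 ± 0.21, adjusted p = 0.109). *RECA1*, on the strand opposite *PSBR*, had 15.9 to 34.5 CPM in the 4 libraries. *PSBR* was thus one of the genes whose own row exceeded its opposite row. *PSBP-1* (AT1G06680), another oxygen-evolving complex gene, had 58.1 and 42.3 CPM in Col-0 against 61.6 and 130 CPM in *jmj26* (0.90 ± 0.38, adjusted p = 0.320). *PSBQA* (AT4G21280) had 2, 2, 15 and 18 counts and was not tested. *NPQ4*, the gene of the PsbS protein that acts in the dissipation of excess light energy, had 0.98 ± 0.31 (adjusted p = 0.173). The other photosystem II genes, *PSBQ-2*, *PSBX*, *PSBY* and *PSBTN*, ranged from 0.24 to 1.63.

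**Figure D4:**
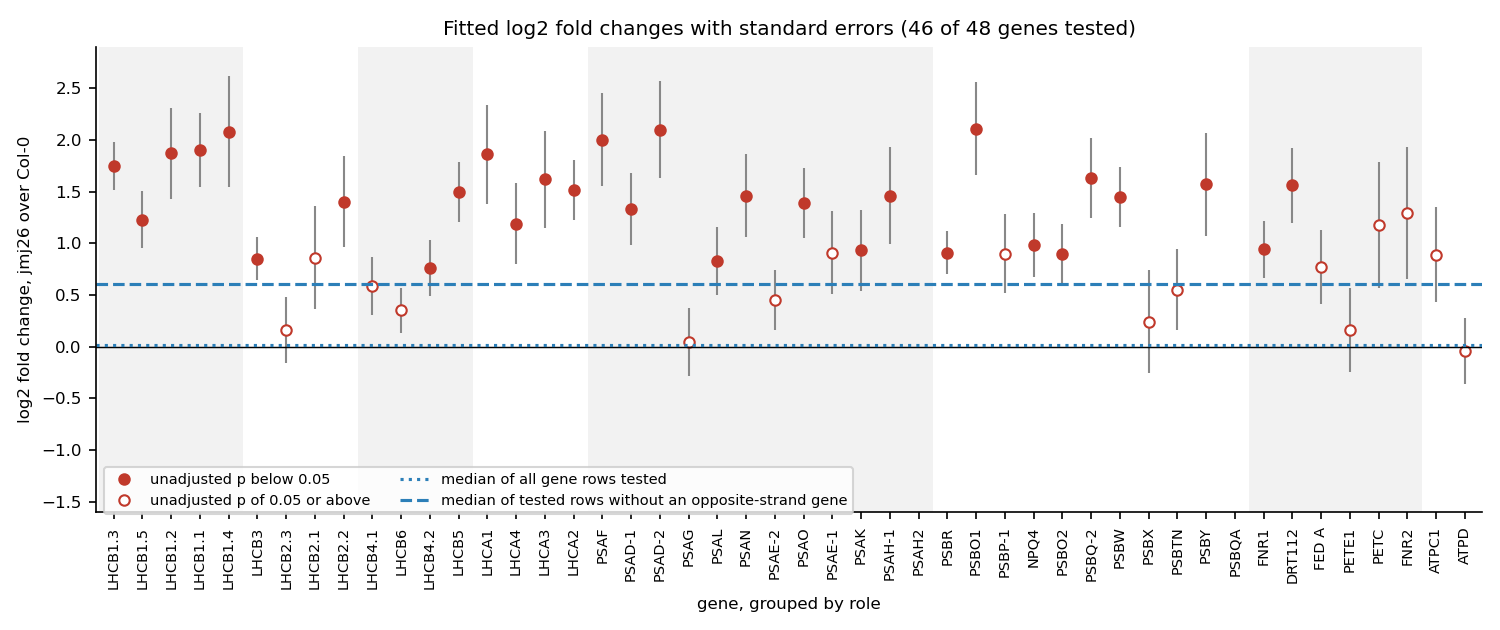
Fitted log2 fold change of *jmj26* over Col-0 with its standard error for the 46 tested coding genes, grouped by role, filled where the unadjusted p was below 0.05. The blue lines are the medians of all gene rows (dotted, 0.013) and of rows without an opposite-strand gene (dashed, 0.61), and 45 of 46 points lie above 0.

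Electron carriers had 2 of 6 rows with an unadjusted p below 0.05 and a median log2 fold change of 1.06. *DRT112* (AT1G20340), the main plastocyanin gene, had 14.8 and 33.5 CPM in Col-0 against 75.3 and 60.6 CPM in *jmj26* (1.56 ± 0.36, adjusted p = 0.109, edgeR). *PETE1* (AT1G76100), the other plastocyanin gene, had 17.3 and 8.82 CPM in Col-0 against 16.8 and 13.5 CPM in *jmj26*, which overlapped (0.16 ± 0.41, adjusted p = 0.935). The difference between these plastocyanin genes was not tested. *FNR1* (AT5G66190), for ferredoxin-NADP reductase, had 32.1 and 47.6 CPM in Col-0 against 86.5 and 63.1 CPM in *jmj26* (0.94 ± 0.28, adjusted p = 0.147). *FED A*, the leaf ferredoxin gene, *PETC*, the Rieske iron-sulfur protein of the cytochrome complex, and *FNR2* had log2 fold changes of 0.77, 1.18 and 1.29, each with an unadjusted p above 0.05. The ATP synthase genes had no row at that p: ATPC1, for the gamma subunit, had 0.89 ± 0.46 and ATPD, for the delta subunit, -0.0402 ± 0.32, the only negative value among the 46.

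At the loci with both strands tested, the own row had a larger log2 fold change than the opposite row in every one of the 17 pairs drawn. These pairs come from 15 genes, as *LHCB6* and *PSAE-1* each have 2 opposite rows. How often this holds over all opposite-strand pairs of the genome was not computed, so it is not shown to be particular to these genes. *PSAG* had the narrowest gap, with 0.0437 and -0.0183. At *LHCB1.5* the own row had 1.23 ± 0.28 and AT2G08665 -0.00184 ± 0.08. At *LHCB1.3* it had 1.75 ± 0.23 and *NRPA2* 0.60 ± 0.16. The difference between the strands was not tested.

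**Figure D5:**
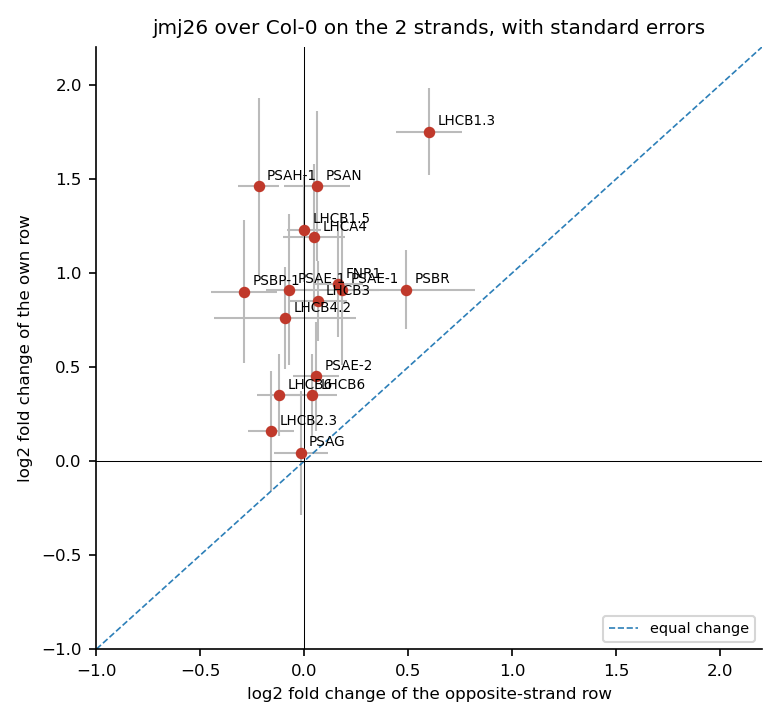
Log2 fold change of *jmj26* over Col-0 of the own row (vertical) against that of the opposite-strand row (horizontal) for the 17 pairs in which both were tested, with standard errors. The dashed line marks equal change; the points lie above it, from *PSAG* near 0 on both axes to *LHCB1.3* at 1.75 and 0.60.

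Lists of related genes outside the 50 had mostly positive log2 fold changes. Of all tested rows, 13.6% were higher at an unadjusted p below 0.05 in edgeR and 5.37% in DESeq2. Among tested rows without an opposite-strand gene, 38.3% were higher at that p in edgeR, 945 of 1343 had a positive value, and the median was 0.61. Of 15 chlorophyll synthesis genes, 10 were tested, none was called by edgeR or DESeq2, 7 were higher with an unadjusted p below 0.05, 0 lower (3 higher with DESeq2), and the median log2 fold change was 1.53. *GUN5*, the magnesium chelatase subunit that binds porphyrin, had 17.3 and 45.9 CPM in Col-0 against 105 and 84.1 CPM in *jmj26* (1.66 ± 0.38, adjusted p = 0.109, edgeR). *CHLI2*, another magnesium chelatase gene, had 37.1 and 52.9 CPM in Col-0 against 40.5 and 31.1 CPM in *jmj26* (-0.30 ± 0.28, adjusted p = 0.739). Of 17 genes of other electron transport, assembly and regulation, 10 were tested, none was called by edgeR or DESeq2, 5 were higher with an unadjusted p below 0.05, 0 lower (2 higher with DESeq2), and the median was 1.18. *NPQ1*, the violaxanthin de-epoxidase, had 277 and 323 CPM in Col-0 against 362 and 291 CPM in *jmj26* (0.13 ± 0.17, adjusted p = 0.843). None of 6 further antenna genes was tested, and their highest count was 15. Of 6 transcription factor and retrograde signalling genes only *GUN1* was tested (1.42 ± 0.66, adjusted p = 0.377). *GPRI1*, also known as *GLK1*, which activates antenna genes, had 1, 2, 23 and 5 counts. Of the 5 leaf markers, which are genes of carbon fixation, 4 were higher with an unadjusted p below 0.05 in edgeR and 3 in DESeq2, none was called by either, and the median was 0.99. The part of leaf tissue composition in the values of the photosynthesis genes was not tested.

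Light-regulated promoters often carry the G-box CACGTG and the I-box core GATAAG. In the 250 bases before the annotated start, on either strand, CACGTG was found for 10 of 48 genes (20.8%) and in 6.49% of 27443 coding-gene promoters. GATAAG was found for 12 of 48 (25%) and in 12.3% of all. The evening element AAATATCT was found for 1 of 48 (2.08%) and in 4.79% of all, and TATAAA for 20 of 48 (41.7%) and in 47.3% of all. CACGTG reads the same on both strands, and GATAAG and TATAAA share the letters ATAA, though neither contains the other. *LHCB6*, *PSAH2* and *PSBQ-2* held both the G-box and the I-box core, and their windows are shown for that reason, with both motifs in capitals. They lie at chr1:5447881-5448130 on the minus strand, chr1:19454548-19454797 on the plus strand and chr4:2673244-2673493 on the minus strand of TAIR10.1.
LHCB6: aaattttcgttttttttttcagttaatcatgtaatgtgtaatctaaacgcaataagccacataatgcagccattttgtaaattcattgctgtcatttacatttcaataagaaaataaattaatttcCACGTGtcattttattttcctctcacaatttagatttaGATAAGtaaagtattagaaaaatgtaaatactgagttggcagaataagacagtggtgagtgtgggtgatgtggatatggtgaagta
PSAH2: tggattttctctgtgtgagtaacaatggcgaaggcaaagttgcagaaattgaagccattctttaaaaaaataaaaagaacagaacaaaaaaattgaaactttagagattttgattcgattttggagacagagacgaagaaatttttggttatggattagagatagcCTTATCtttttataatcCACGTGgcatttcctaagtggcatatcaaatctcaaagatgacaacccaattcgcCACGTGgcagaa
PSBQ-2: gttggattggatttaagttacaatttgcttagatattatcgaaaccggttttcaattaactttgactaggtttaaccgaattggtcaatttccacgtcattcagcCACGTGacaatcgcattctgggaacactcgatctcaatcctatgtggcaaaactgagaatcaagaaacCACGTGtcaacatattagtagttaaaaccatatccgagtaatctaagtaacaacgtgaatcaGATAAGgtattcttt
The values of these genes were far apart: the log2 fold change was 0.35 for *LHCB6* and 1.63 for *PSBQ-2*, and *PSAH2* was not tested. None of the *LHCB1* copies held CACGTG or GATAAG in this window, and *LHCB1* had the highest median among the roles. Whether these motifs go with the log2 fold changes was not tested. A match in the letters is a description of the sequence and not a binding site.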

How the data were processed

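The authors trimmed reads with fastp, aligned them to Araport11 with STAR v2.7 allowing multiple hits, and deposited TEcount read counts per gene and transposon copy, which are not normalized. The strand setting is not given in the sources used here. The counts hold 36632 gene rows, all found in the TAIR10.1 annotation, which gave coordinates, exons and opposite-strand genes, and 31189 transposon rows. Samples were grouped by their labels.

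Gene rows were filtered with filterByExpr, TMM-scaled and tested with glmQLFTest of edgeR 4.0.16 in R 4.3.3 (glmQLFit with legacy = TRUE, genotype only), with Benjamini-Hochberg adjustment over 5232 rows and a threshold of 0.05. SE is the log2 fold change over the square root of F. The biological coefficient of variation was 16.6%. The procedure was tested on simulated data. DESeq2 1.42.0, other filters, scalings and row sets, left-out libraries and a replicate block were alternatives. At 3 counts, the floor was 1.81 to 5.17 CPM of gene counts. Shares were computed with scipy 1.17.1.

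The members and lists were chosen with earlier results of these data known. Values were named for the opposite-strand rows and their partners, the 10 smallest p, the 10 highest counts and each gene with an opposite-strand row, and otherwise by role. Windows of 50 bases stand for reads of unstated length.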

Additional observations from a re-analysis of the deposited data

How the results depend on the processing

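The 50 identifiers were called higher in *jmj26* 0 times, and 1 with the Wald test of DESeq2 (of 8 gene rows in all), 20 with no filter on low counts (of 592 in all, with 22317 rows tested), and 0 to 22 with a library left out. With the replicate number as a block 10 were called, of 64 gene rows in all. The deviations of same-numbered libraries correlated at -0.16 over 5232 rows, and the labels do not say what such libraries share. A crossed pairing, chosen after seeing the data, called 12 of the 50 and 152 gene rows in all. None was called lower under any alternative, and the median log2 fold change lay between 0.709 and 1.490. With no filter on low counts the median of the identifiers was 1.078, where that of all gene rows was 0.592. Rows without an opposite-strand gene then had a higher median, 1.309. Of 424 values of 28 named genes under the alternatives named in the methods and the crossed pairing, 359 kept direction and side of the threshold, 50 passed it and 15 changed sign, the cause not tested.

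The changes of sign were in 4 genes with small fitted values. For AT2G08665 the log2 fold change was 0.052 where each library had to hold 10 counts, 0.0052 with transposon rows, 0.022 with library totals and 0.027 with upper quartile scaling. For AT1G55673 it was 0.039, 0.0066 and 0.014 with that filter, library totals and upper quartile, and -0.230 to 0.075 with a library left out. For *PSAG* (AT1G55670) it was -0.012 with DESeq2, -0.058 with no filter, -0.0093 without the row AT2G08665, and -0.503 to 0.419 with a library left out. For *LHCB2.3* (AT3G27690) it was -0.291 to 0.397 with a library left out. In percentage points of *jmj26* minus Col-0, the share of AT2G08665 differed by 0.379 of all counts and by -0.567 to 0.543 of gene counts with a library left out. That of AT1G55673 differed by 0.0309 of all counts and by -0.346 to 0.268 with a library left out. The share of *PSAG* within its pair differed by 0.00878 with counts summed and by -0.0407 to 0.0376 with a library left out. The share of the 48 genes differed by 0.388 without the rows with the most counts, against 0.244 with them.

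Of the 48 genes, 14 had under 10 counts in Col-0 replicate 1 and 14, not all of them the same genes, in Col-0 replicate 2. Small differences were not detectable for such genes at this depth.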
